A study of Mus musculus with 64 samples.

Results

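Microglia of 24-month-old female mice were compared between 3 mice injected with lipopolysaccharide (LPS) and 3 mice injected with phosphate-buffered saline (PBS). These 6 libraries were selected by their labels from the 64 bulk RNA-seq libraries of the series, and all 5647 genes of the deposited table were tested. All animals were wild-type C57BL/6J females, and each library came from the brain of 1 mouse, whose microglia were sorted on CD11b and low CD45 after removal of dead cells. LPS was given by intraperitoneal injection at 0.5 mg per kg body weight, the controls received PBS alone, and the brains were taken 2 hours later. The same injection was given to females of 3 months, with 4 PBS and 3 LPS libraries, and of 14 months, with 5 and 5, and these served for comparison. The labels do not say which mice were handled together. Each p rests on the spread between single mice pooled over the groups of all 3 ages, not on that of the 24-month mice alone.

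LPS is the outer-membrane lipid of Gram-negative bacteria. On myeloid cells it is presented by CD14 to the receptor TLR4 with its co-receptor MD-2 (encoded by Ly96), which signals through MyD88 to NF-kB and through TRIF to type I interferon. Microglia, the resident macrophages of the brain, answer such signals within hours with cytokines, chemokines, feedback inhibitors and interferon-stimulated genes. They also carry immediate early genes, transcription factors such as Fos, Jun and Atf3 that respond within minutes to many stimuli.

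The values were FPKM, fragments counted per transcript length and library size, adjusted for batches and rounded by the authors, so every value below is a level per transcript length. The fit took in the 23 libraries of the 3 ages, which then shared 1 estimate of the spread. Differences were taken on log2(value + 1), which understates the change of low genes, and are given with their standard error (SE). A gene passed the test at an adjusted p under 0.05 in limma, with Benjamini-Hochberg adjustment over all 5647 genes, and a fold over 1.5. Read depth is unknown. The values of the 3 LPS libraries summed to between 465657 and 488306 and those of the 3 PBS libraries to between 511391 and 554459, and the groups did not overlap. The median difference over all genes was -0.15 on the log2 scale, and it became -0.03 after median-ratio scaling and 0.02 after scaling to the same total. Falls are to be read beside that shift.

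The sorted cells carried the microglial markers P2ry12, Tmem119, Cx3cr1 and Sall1. All 10 microglial markers listed were present, and their summed level was 17235, 20303 and 19026 in the PBS libraries and 15954, 14584 and 20359 in the LPS libraries, which overlapped. Markers of neurons and of pericytes had no row in the table.

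At 24 months 548 genes passed (9.70% of those tested). Of these, 241 were higher after LPS (4.27%) and 307 were lower (5.44%). Counts of members in the gene lists below are to be read beside these shares. All 241 of the higher genes passed again with the same sign under both other scalings, whereas 149 of the 307 lower genes did so after median-ratio scaling and 106 with the same total. Both scalings raised the LPS values relative to the PBS values, so they could hardly remove a rise and put only the falls to a test. The split of higher against lower genes was thus 241 against 307 in the deposited values, 366 against 149 after median-ratio scaling and 416 against 106 with the same total. Values of the LPS and PBS libraries did not overlap for 218 of the higher and 281 of the lower genes, which compares with 26.5% of all genes. The number that passed depended on the libraries in the fit. With the 6 libraries of 24 months alone 91 genes passed, 47 higher and 44 lower. It was 203 without PBS replicate 1, 222 without PBS replicate 2 and 269 without LPS replicate 1, and it lay between 427 and 577 without each of the others. With each of the 6 libraries left out in turn, 62 of the higher and 50 of the lower genes passed every time. The groups that shared the spread were not equally tight. Libraries of 1 group correlated at 0.883 to 0.938 for 24-month LPS and 0.903 to 0.947 for 24-month PBS. The range was 0.967 to 0.979 for 3-month PBS and 0.840 to 0.969 for 14-month LPS.

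Among genes without overlap between the groups, the largest rises were those of 2 acute inflammation genes. Saa3, an acute-phase apolipoprotein of macrophages, was at 6, 1 and 0 after PBS and at 70, 32 and 31 after LPS. Acod1, which makes the immunometabolite itaconate, was at 2, 1 and 0 against 38, 29 and 16. Both were near the floor of the table in every PBS library and well above it in every LPS library. Saa3 rose by 4.13 ± 0.61 (SE) on the log2 scale (adjusted p = 0.00025) and Acod1 by 3.90 ± 0.50 (adjusted p = 5.3e-05). Il1rn, the receptor antagonist that limits interleukin-1 signalling, went from 6, 4 and 5 to 91, 61 and 29, a rise of 3.22 ± 0.35 (adjusted p = 6.48e-06). Its agonist Il1b was at 70, 63 and 71 after PBS and at 301, 360 and 133 after LPS. The group means of Il1b differed 3.89-fold, and its log2 difference was 1.83 ± 0.30 (adjusted p = 0.000705). LPS replicate 3 was the lowest of the LPS libraries for Acod1, Il1rn and Il1b, yet above every PBS library. These 4 genes passed with each of the 6 libraries left out in turn.

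Clec4e, Clec4d and Fpr1, which are counted with the acute inflammation genes below, were among the 10 largest rises. Clec4e (Mincle), a receptor for mycobacterial glycolipid, was at 4, 4 and 3 after PBS and at 59, 45 and 33 after LPS, and Clec4d, its partner, at 5, 3 and 0 against 35, 41 and 26. Fpr1, a receptor for formylated bacterial peptides, was at 8, 9 and 0 against 68, 39 and 44. No LPS value of these 3 genes lay within the PBS range. Their log2 differences were 3.29 ± 0.47, 3.58 ± 0.57 and 3.48 ± 0.51, and all passed with any 1 of the 6 libraries left out. Mrgpra2b, a G-protein-coupled receptor, was at 2, 4 and 5 against 84, 42 and 26, and Hdc, the enzyme that makes histamine, at 6, 4 and 2 against 60, 54 and 11. Mrgpra2b has close paralogues between which reads could be split. The 10 largest rises also held the neutrophil markers Mpo (3.67 ± 1.03) and Elane (3.03 ± 0.90), described with those markers below. At 3 and 14 months Mpo differed by -2.78 and -1.60 and Elane by -2.28 and -1.51, and none of these passed. Of the 10 largest rises, 6 included a PBS value of 1 or less, 4 of them in PBS replicate 3, so their size depends on the pseudocount.

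Of the 23 measured cytokine and acute inflammation genes, 11 rose and none fell, and the list median was 0.79 against -0.15 over all genes. Besides those above, Lcn2, Icam1, Gpr84 and Ebi3 passed. Lcn2, an iron-withholding protein that is also a neutrophil marker, was at 40, 30 and 26 after PBS and at 455, 359 and 38 after LPS. LPS replicate 3 lay within the PBS range, and Lcn2 no longer passed without LPS replicate 1, LPS replicate 2 or PBS replicate 2 (adjusted p up to 0.102). Tnf, the gene of tumour necrosis factor, did not pass. It was at 60, 50 and 66 after PBS and at 85, 83 and 55 after LPS, with overlapping groups and a difference of 0.32 ± 0.26 (adjusted p = 0.441).

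**Figure D1:**
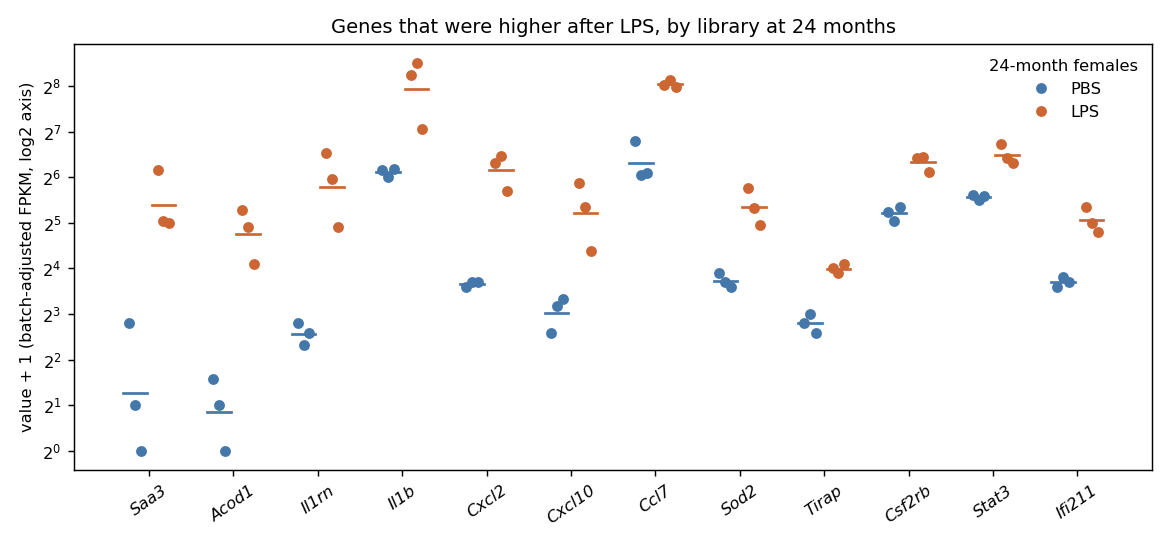
Values plus 1 on a log2 axis for 12 genes that passed the test, with 1 point for each of the 3 PBS (blue) and 3 LPS (orange) libraries at 24 months and a bar at the mean of the log2 values. For each gene every LPS library lies above every PBS library, from 31 to 70 against 0 to 6 for Saa3 to 78 to 105 against 44 to 48 for Stat3.

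Chemokines rose in part. Of 14 measured, 4 passed as higher and none as lower (list median 0.61). Cxcl2, which recruits neutrophils, was at 11, 12 and 12 after PBS and at 78, 88 and 51 after LPS, a 6.20-fold difference of the means and 2.50 ± 0.24 on the log2 scale (adjusted p = 6.3e-07). It had the smallest adjusted p of all genes. Cxcl10, an interferon-induced attractant of T cells, was at 5, 8 and 9 against 58, 40 and 20 (2.19 ± 0.41, adjusted p = 0.00308). Ccl7, an attractant of monocytes, was at 110, 65 and 67 against 257, 281 and 250 (1.73 ± 0.39, adjusted p = 0.0092). These 3 passed without any 1 of the libraries, while Ccl9 (0.85 ± 0.26) passed in 1 of the 6 such fits, that without LPS replicate 2. Other chemokines were spread more widely. Ccl4 was at 134, 190 and 245 after PBS and at 581, 513 and 241 after LPS, so that LPS replicate 3 lay within the PBS range (adjusted p = 0.054, or 0.0378 after median-ratio scaling). Ccl3 was at 169, 182 and 223 against 368, 326 and 164 (adjusted p = 0.388). Ccl5 was at 75, 91 and 66 against 168, 128 and 47 (adjusted p = 0.546). In Ccl3 and Ccl5 LPS replicate 3 was the lowest of all 6 libraries.

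The promoters of Cxcl2, Cxcl10 and Ifit1 are shown because these genes rose and hold the motifs searched for. Ifit1, described below, passed in only 1 of the 6 fits that left out a library. The windows are those of RefSeq on GRCm38.p6, from 250 bases before to 50 after the start site, printed 5′ to 3′ in the direction of the gene. Capitals mark matches to GGGANNTTC, a pattern of the NF-kB type, and to GAAANNGAA, a pattern of the interferon-response type, on either strand (as GAANNTCCC and TTCNNTTTC). The Cxcl2 window is chr5:90903649-90903948 on the plus strand, with 2 overlapping NF-kB-type matches, 1 on each strand. The Cxcl10 window is chr5:92348840-92349139 on the minus strand, with 1 match of each type. The Ifit1 window is chr19:34640639-34640938 on the plus strand, with 3 interferon-response-type matches, of which the first 2 overlap.
Cxcl2: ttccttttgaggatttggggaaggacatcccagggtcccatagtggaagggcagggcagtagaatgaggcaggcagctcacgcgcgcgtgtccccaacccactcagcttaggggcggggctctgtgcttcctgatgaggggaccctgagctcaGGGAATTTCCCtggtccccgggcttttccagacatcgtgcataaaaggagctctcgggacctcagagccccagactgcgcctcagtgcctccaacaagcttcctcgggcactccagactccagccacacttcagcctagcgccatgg
Cxcl10: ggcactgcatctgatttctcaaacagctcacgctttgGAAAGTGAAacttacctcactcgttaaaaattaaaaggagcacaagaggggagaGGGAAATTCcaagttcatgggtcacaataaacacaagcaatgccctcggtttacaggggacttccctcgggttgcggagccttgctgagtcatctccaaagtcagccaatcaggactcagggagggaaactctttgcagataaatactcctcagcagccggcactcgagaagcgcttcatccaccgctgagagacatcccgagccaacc
Ifit1: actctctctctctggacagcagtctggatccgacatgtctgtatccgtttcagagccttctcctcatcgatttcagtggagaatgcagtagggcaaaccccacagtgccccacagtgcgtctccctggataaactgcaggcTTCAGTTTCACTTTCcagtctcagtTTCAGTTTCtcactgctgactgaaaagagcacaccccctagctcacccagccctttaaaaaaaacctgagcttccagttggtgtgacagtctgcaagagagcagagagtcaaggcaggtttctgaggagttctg

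A promoter window was found for 4571 of the 5647 genes, 5892 windows in all, since some genes have several start sites. The NF-kB-type pattern was in 3.92% of all windows, in 6.69% of the 239 windows of genes higher after LPS and in 2.22% of the 316 windows of genes lower after LPS. The interferon-response-type pattern was in 7.72%, 12.6% and 4.43%. With no limit on the fold, the shares in higher genes were 6.37% and 12.0%. These shares are descriptions of letters in a window.

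The LPS receptor, its co-receptors and its main adaptor did not pass. Tlr4 was at 17, 15 and 16 after PBS and at 17, 13 and 24 after LPS, and Ly96 at 42, 62 and 46 against 48, 59 and 44. Cd14 was at 516, 559 and 502 against 1048, 977 and 674. The Cd14 groups did not overlap, but the difference of 0.75 ± 0.27 did not pass (adjusted p = 0.0748), whereas after median-ratio scaling it was 0.87 and passed (adjusted p = 0.0421). Myd88, the main adaptor, was at 65, 52 and 56 after PBS and at 85, 48 and 67 after LPS, with overlapping groups (0.17 ± 0.27, adjusted p = 0.709). Of 20 measured genes of this list 1 was higher and 2 were lower, beside 4.27% and 5.44% of all genes. The adaptor Tirap, which bridges TLR4 to MyD88, was at 6, 7 and 5 against 15, 14 and 16, a rise of 1.2 ± 0.21 (adjusted p = 0.00124) that held without any 1 library. Ticam2 (TRAM), which bridges TLR4 to TRIF, was at 20, 22 and 24 against 7, 5 and 18. It fell by 1.24 on the log2 scale (SE 0.30, adjusted p = 0.0121), and did not pass without LPS replicate 1 or 2 (adjusted p up to 0.0616). Unc93b1, which carries endosomal Toll-like receptors, fell by 0.70 (adjusted p = 0.0252) but did not pass after either rescaling.

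Among 18 NF-kB subunits and feedback inhibitors 2 rose and none fell (list median 0.38), beside 4.27% and 5.44% of all genes. Nfkb2, the p100 subunit, was at 7, 10 and 6 after PBS and at 26, 20 and 9 after LPS, so that LPS replicate 3 lay within the PBS range. Its rise of 1.07 ± 0.34 (adjusted p = 0.0451) passed in 1 of the 6 fits that left out a library, that without LPS replicate 3. Tnip2, an inhibitor of NF-kB, was the other (0.68). Nfkbia, the feedback inhibitor of NF-kB, differed by 0.12. Among 17 IRF, STAT and related factors 3 rose. Stat3, which transmits interleukin-6 and interleukin-10 signals, went from 48, 44 and 47 to 105, 85 and 78 (0.92 ± 0.24, adjusted p = 0.0185). Batf rose by 1.15 ± 0.26 and Cebpd by 1.11 ± 0.27. Stat3 did not pass without LPS replicate 1, PBS replicate 1 or PBS replicate 2, Batf not without LPS replicate 1, and Cebpd not without LPS replicate 1 or PBS replicate 2 (adjusted p up to 0.0813). Of 30 cytokine and chemokine receptors and SOCS genes 5 rose and none fell. Csf2rb, the shared beta chain of the GM-CSF receptor family, went from 37, 32 and 40 to 85, 86 and 68 (1.11 ± 0.22, adjusted p = 0.00413) and passed without any 1 library. Socs3, a feedback inhibitor of cytokine signalling, went from 50, 42 and 38 to 170, 162 and 88. Its groups did not overlap, but of the 6 fits that left out a library it passed only in that without LPS replicate 3 (adjusted p up to 0.0851). Il4ra, Il1r2 and Ccr1 also rose. Sod2, the mitochondrial superoxide dismutase, went from 14, 12 and 11 to 53, 39 and 30 (1.61 ± 0.25, adjusted p = 0.000331), and Tgm2, a transglutaminase, from 14, 17 and 11 to 40, 48 and 27 (1.37 ± 0.27, adjusted p = 0.00413).

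Of 50 measured interferon-stimulated genes 12 rose and none fell, 41 had a positive difference, and the list median was 0.67 against -0.15 over all genes. For 26 of the 50 every LPS library was above every PBS library, compared with 524 of all 5647 genes. Ifit1, which binds viral RNA, was at 5, 6 and 6 after PBS and at 35, 18 and 14 after LPS (1.71 ± 0.55, adjusted p = 0.0472). Ifi211 was at 11, 13 and 12 against 40, 31 and 27 (1.36 ± 0.36, adjusted p = 0.0206), and Ifit2 at 8, 10 and 11 against 32, 17 and 18 (1.08 ± 0.30, adjusted p = 0.0247). Ifitm2, a membrane protein that hinders viral entry, was at 287, 150 and 119 against 457, 401 and 295 (1.13 ± 0.31, adjusted p = 0.0244). LPS replicate 1 had the highest LPS value of all 4, and none of the 4 passed without it. Of the 6 fits that left out a library, Ifit1 passed in 1, Ifitm2 in 2, and Ifi211 and Ifit2 in 3 each (adjusted p up to 0.189). Genes of the Ifit and Ifi2 families have close copies between which reads could be split. Xaf1, which interferons also induce, differed by -0.06.

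**Figure D2:**
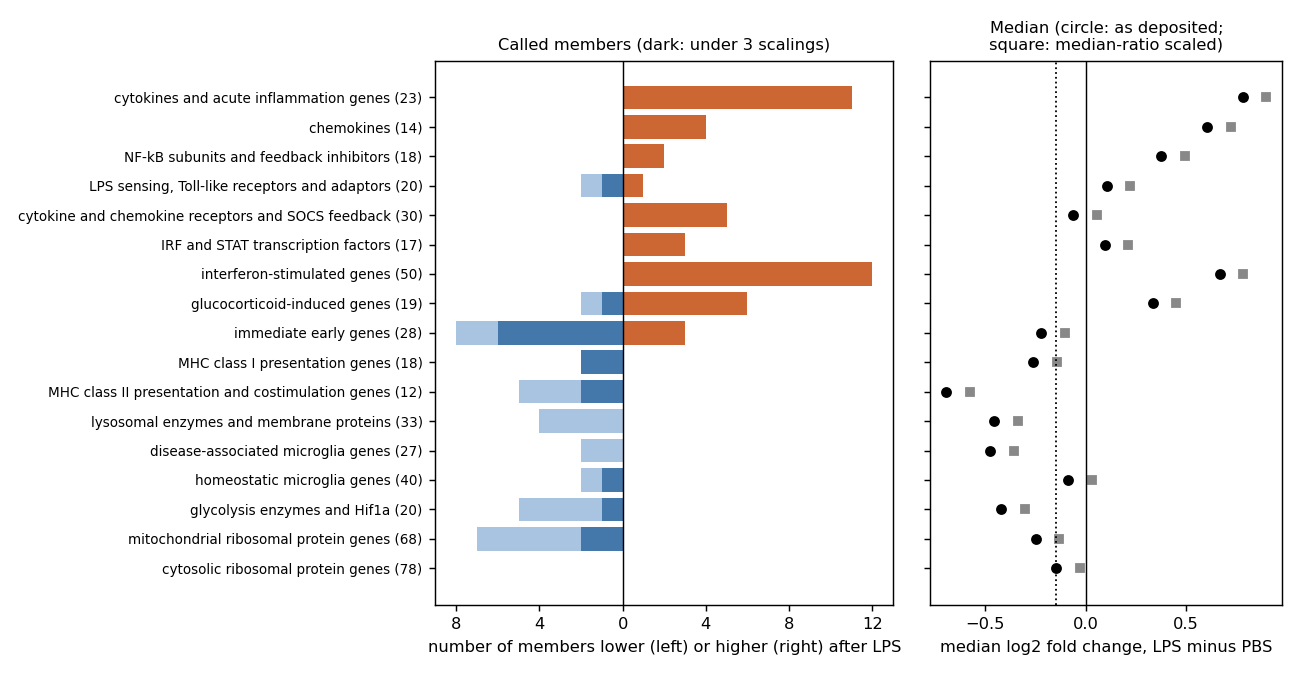
Gene lists at 24 months, with the number of measured members in brackets. Left, the number of members that were lower (blue) or higher (orange) after LPS in the deposited values, with those that passed under all 3 scalings in the dark shade. Both rescalings moved the differences upward. Right, the list median of the log2 difference in the deposited values (circles) and after median-ratio scaling (squares), with a dotted line at the median of all genes, -0.15. Cytokines (11 of 23) and interferon-stimulated genes (12 of 50) hold the most higher members, and immediate early genes the most lower ones (8 of 28).

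Among the immediate early genes falls were more frequent. Of 28 measured, 8 fell and 3 rose, and of the 8, 6 also fell under both other scalings. Atf3, a stress-induced repressor, was at 168, 188 and 254 after PBS and at 52, 80 and 64 after LPS, a 3.11-fold difference of the means. Jun, a subunit of the AP-1 factor, was at 915, 763 and 667 against 287, 349 and 326, and its partner Fos at 2144, 2278 and 2466 against 978, 1250 and 1376. Fosb was at 74, 85 and 96 against 23, 43 and 37. In all 4 genes each LPS library was below each PBS library. The falls on the log2 scale were -1.62 ± 0.21 for Atf3 (adjusted p = 5.3e-05), -1.28 ± 0.21 for Jun (adjusted p = 0.000705), -0.95 ± 0.15 for Fos (adjusted p = 0.000559) and -1.32 ± 0.26 for Fosb (adjusted p = 0.00393). Nr4a1, a nuclear receptor, fell from 118, 84 and 78 to 47, 37 and 34, and Dusp1 and Dusp6, phosphatases that switch off MAP kinases, fell by 0.73 and 0.87. Nr4a1 and Dusp1 did not pass under all 3 scalings. The immediate early genes that rose were Gadd45g, Ier3 and Btg1. Gadd45g, a growth arrest gene, went from 37, 42 and 48 to 95, 110 and 100 (1.25 ± 0.21, adjusted p = 0.00113). Egr1, another immediate early factor, differed by -0.09. Ppp1r15a (GADD34), which ends the block on translation in stressed cells, fell like Atf3, from 277, 254 and 242 to 89, 93 and 60 (-1.69 ± 0.23, adjusted p = 0.000111). Atf3, Jun, Fosb and Ppp1r15a passed with any 1 of the 6 libraries left out. Brains were dissociated with warm papain before sorting, and the authors caution that such digestion may reactivate microglia ex vivo. Its part in the levels of these genes, here and in the comparison of ages below, was not tested.

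Of 19 glucocorticoid-induced genes 6 rose and 2 fell, Sgk1 and Dusp1 (list median 0.33). Of the 6, Lcn2 and Il1r2 are also on the neutrophil list. Mt2 and Mt1, metallothioneins, rose by 2.74 ± 0.77 and 0.98, but Mt2 did not pass without LPS replicate 1, LPS replicate 2, PBS replicate 2 or PBS replicate 3 (adjusted p up to 0.104). Sgk1, a serum- and glucocorticoid-induced kinase, fell from 200, 183 and 227 to 73, 93 and 97 (-1.21 ± 0.26, adjusted p = 0.0068). Fkbp5 and Sesn1, with differences of 1.09 and -1.10, did not pass.

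Of 12 measured class II presentation and costimulation genes 5 fell and none rose, with a list median of -0.69, or -0.57 after median-ratio scaling, under which 2 fell. H2-Ab1, the class II beta chain, was at 3052, 3755 and 2540 after PBS and at 1473, 2299 and 1604 after LPS. H2-Ob, which tunes peptide loading, was at 39, 43 and 50 against 23, 28 and 19, and H2-Oa at 38, 65 and 51 against 31, 18 and 28. The falls were -0.81 ± 0.24 for H2-Ab1 (adjusted p = 0.0335), -0.90 ± 0.20 for H2-Ob (adjusted p = 0.00739) and -0.97 ± 0.26 for H2-Oa (adjusted p = 0.0227). H2-Ob and H2-Oa also passed under both other scalings, while H2-Ab1 did not. H2-Ob passed without any 1 library, H2-Oa not without LPS replicate 2 or PBS replicate 2, and H2-Ab1 not without 4 of the 6 libraries, namely LPS replicates 1 and 3 and PBS replicates 1 and 2. Cd74, the invariant chain, was at 7729, 8945 and 5957 against 3956, 6041 and 3986 and did not pass (adjusted p = 0.0546), and LPS replicate 2 lay within the PBS range. The costimulators Cd80 and Cd86 differed by 0.10 and 0.19. Of 18 class I presentation genes 2 fell, under all 3 scalings, beside 5.44% of all genes in the deposited values. Tap2, a subunit of the peptide transporter, was at 65, 46 and 56 against 27, 30 and 14 (-1.25 ± 0.28, adjusted p = 0.00742), and its partner Tap1 differed by 0.24. H2-D1, a class I heavy chain, fell by 0.86 (adjusted p = 0.0171) and did not pass without LPS replicate 3, PBS replicate 1 or PBS replicate 2. Class I and class II genes have close copies between which reads could be split.

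Of 33 lysosomal genes 4 fell (Lamp1, Ctsa, Ctsb and Ctsh), 1 had a positive difference, and the list median was -0.46. After median-ratio scaling 1 still passed, and none did under all 3 scalings. Over all genes 1595 had an unadjusted p under 0.05. Lamp1, a lysosomal membrane protein, was at 754, 715 and 567 after PBS and at 380, 472 and 392 after LPS (-0.71 ± 0.16, adjusted p = 0.00931), and it did not pass without PBS replicate 1 (adjusted p = 0.0528). Of 27 disease-associated microglia genes 2 fell, Ctsb and Trem2, beside 5.44% of all genes, and the list median was -0.48. Neither passed after rescaling. With median-ratio scaling both missed only the limit on the fold, at -0.47 for Ctsb (adjusted p = 0.046) and -0.48 for Trem2 (adjusted p = 0.0287). Trem2, a lipid-sensing receptor of microglia, was at 1368, 1427 and 1276 against 844, 1022 and 832. Apoe, which carries lipids, was at 14150, 10480 and 10387 against 4615, 8812 and 4079, a difference of -1.07 ± 0.42 that did not pass (adjusted p = 0.0936).

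Of 40 measured homeostatic genes 2 fell (Upk1b and Trem2), beside 5.44% of all genes, none rose, and the list median was -0.09. P2ry12, the purinergic receptor that guides microglial processes, was at 1394, 1900 and 1850 after PBS and at 1306, 1086 and 2181 after LPS. Tmem119 was at 2182, 1972 and 1759 against 1677, 1198 and 1527. The fractalkine receptor Cx3cr1 was at 1201, 1410 and 1185 against 895, 904 and 1067. Sall1, a transcription factor of microglial identity, was at 97, 85 and 103 against 62, 92 and 66. The adjusted p of these 4 lay between 0.171 and 0.607. Upk1b, a uroplakin, fell from 106, 172 and 206 to 73, 91 and 83 (-0.91 ± 0.21, adjusted p = 0.0099).

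None of 78 cytosolic ribosomal protein genes passed, with a list median of -0.15, that of all genes. Of 68 mitochondrial ribosomal protein genes 7 fell and none rose (list median -0.25), and 2 of them, Mrps11 and Mrpl44, fell under all 3 scalings. Mrps11 was at 26, 26 and 34 after PBS and at 14, 11 and 13 after LPS (-1.11 ± 0.22, adjusted p = 0.00393). Of 20 glycolysis genes 5 fell in the deposited values (list median -0.42), and Tpi1 alone under all 3 scalings. Aldoa, the aldolase of glycolysis, went from 550, 536 and 534 to 359, 365 and 267 (-0.72 ± 0.14, adjusted p = 0.00317). Of 69 zinc finger protein genes 6 rose and 2 fell, beside 4.27% and 5.44% of all genes, with a list median of 0.02. Hsp90aa1, an inducible chaperone, rose from 67, 87 and 86 to 142, 141 and 147 (0.84 ± 0.20, adjusted p = 0.0113), and did not pass without PBS replicate 1. Among the other lists of these housekeeping classes, 1 of 76 respiratory chain genes (Ndufv3) and 1 of 36 proteasome subunits (Psmc1) fell, both only in the deposited values and under neither rescaling. Of 57 translation factors 2 rose (Eif3a and Eif1a), beside 4.27% of all genes, and none of 20 aminoacyl-tRNA synthetases passed.

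Low values marked the 10 largest falls. Lypla2, a thioesterase, was at 29, 24 and 9 after PBS and at 0.95, 0.44 and 0.80 after LPS. Dnal4 was at 15, 20 and 13 against 7, 0 and 0.48, and Kdelr1, the receptor that returns proteins to the endoplasmic reticulum, at 14, 15 and 18 against 9, 0.16 and 0.39. Of the 10, 9 had an LPS value of 1 or less and 8 of those had it in LPS replicate 2. That library held 44 values between 0 and 1 and 22 at 0, against 2 to 25 and 0 to 13 in the other 5 libraries. Sertad3, Nt5c3b, Hspb3 and Fam213a did not pass without it, nor without PBS replicate 1 or PBS replicate 2, and Hspb3 and Fam213a did not pass under all 3 scalings. Without genes that had a value of 1 or less in any of the 6 libraries, 232 higher and 287 lower genes remained.

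Of the 3 measured T and NK cell markers 2 fell, and neither of the 2 measured B cell markers passed. Nkg7, a granule protein of T and NK cells, was at 112, 159 and 112 after PBS and at 49, 37 and 11 after LPS, and Ms4a4b, a T cell membrane protein, at 39, 68 and 44 against 20, 9 and 11. No LPS library reached a PBS value, and the differences were -2.16 ± 0.41 for Nkg7 (adjusted p = 0.00317) and -1.87 ± 0.41 for Ms4a4b (adjusted p = 0.0074). Among the 10 largest falls, Cxcr6, a chemokine receptor of resident T cells, fell from 30, 59 and 39 to 15, 0 and 4, and Gimap3, a lymphocyte GTPase, from 32, 44 and 24 to 9, 13 and 0.65. Cd3g, a part of the T cell receptor complex, was at 36, 58 and 27 against 13, 15 and 6 and did not pass (adjusted p = 0.14). Only 3 of the 18 listed T and NK cell markers had a row in the table, and their summed level was 187, 285 and 183 after PBS and 82, 61 and 28 after LPS. At 3 months it lay between 24 and 36 after PBS and between 31 and 50 after LPS, and at 14 months between 39 and 127 and between 32 and 48. In these bulk samples fewer cells of a type and less RNA per cell cannot be told apart.

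The summed level of the 20 measured neutrophil markers was 9497, 8637 and 3415 in the PBS libraries and 17131, 10580 and 4373 in the LPS libraries. In both groups replicate 3 was the lowest and the groups overlapped. S100a8 and S100a9, the calprotectin subunits, made up most of it, with S100a8 at 4611, 4262 and 1614 against 9351, 5329 and 2549 (0.67 ± 0.50, adjusted p = 0.391). Of the 20, 4 rose, namely Mpo, Elane, Lcn2 and Il1r2. Mpo, the myeloperoxidase of granules, was at 0, 0 and 5 after PBS and at 47, 31 and 7 after LPS, and Elane, the neutrophil elastase, at 0.90, 0.28 and 7 against 46, 24 and 8. Mpo and Elane each failed the test without LPS replicate 1, LPS replicate 2, PBS replicate 1 or PBS replicate 2 (adjusted p up to 0.144), as did Il1r2 without LPS replicates 1 or 3 or PBS replicates 2 or 3. LPS replicate 1, with the highest neutrophil sum, also had the highest LPS value of Saa3, Acod1, Il1rn, Fpr1, Mrgpra2b and Clec4e. All 6 genes passed without that library, a fit in which LPS replicate 2 (10580) still had a neutrophil sum above every PBS library. Cxcl2 and Il1b were highest in LPS replicate 2. At 3 months the neutrophil sum lay between 7355 and 19671 after PBS and between 2411 and 4150 after LPS. The part of neutrophil RNA in the 24-month rises was not tested. Monocyte and macrophage markers summed to between 571 and 1216 after PBS and between 741 and 1128 after LPS, with Thbs1 the 1 of 14 that rose. Erythrocyte markers summed to 10, 18 and 0.53 against 55.7, 171 and 24, with no gene that passed.

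**Figure D3:**
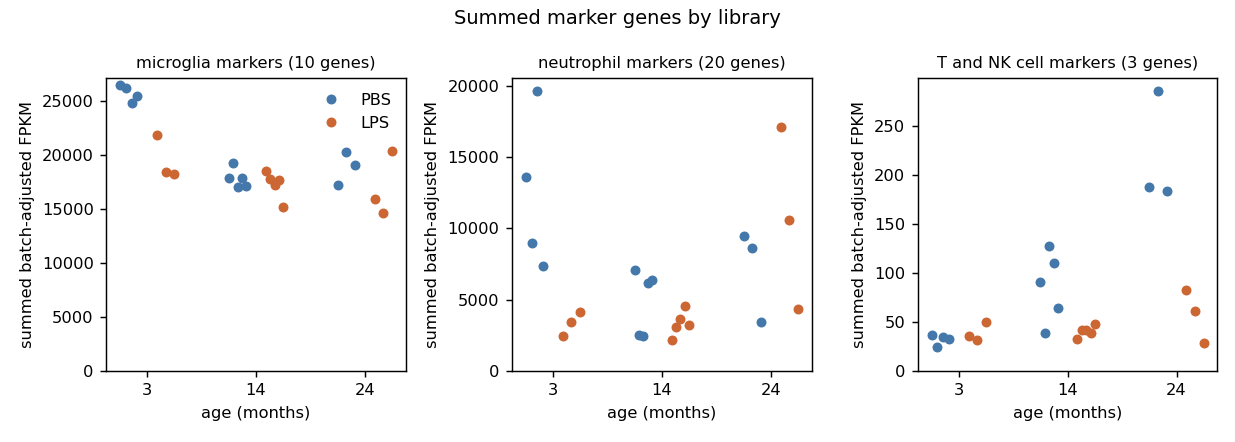
Summed batch-adjusted FPKM of microglial (10 genes), neutrophil (20 genes) and T and NK cell markers (3 genes) in each library, by age and treatment (blue PBS, orange LPS). At 24 months the neutrophil sums of PBS (3415 to 9497) and LPS (4373 to 17131) libraries overlap, whereas the T and NK sums (183 to 285 against 28 to 82) do not.

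The response at 24 months was set against those of 3 and 14 months, which come from other mice. At 3 months 348 genes were higher (6.16% of those tested) and 287 lower (5.08%) after LPS, and at 14 months 79 (1.40%) and 23 (0.407%), or 11.2% and 1.81% of all genes in both directions. Of the 241 genes higher at 24 months 116 were also higher at 3 months, which is 48.1% of the 24-month and 33.3% of the 3-month genes. With the 14-month genes 34 were shared, 14.1% and 43.0%. Of the 307 genes lower at 24 months 40 were lower at 3 months (13% and 13.9%) and 2 at 14 months (0.651% and 8.70%).

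Genes that passed at another age were then read in the 24-month mice. Those mice gave no fold to that choice, but they shared in the estimate of the spread. With only the 2 groups of an age in the fit, 1037 instead of 635 genes passed at 3 months and 33 instead of 102 at 14 months. The 348 genes higher at 3 months had a median difference of 0.62 at 24 months and of 0.50 at 14 months, and 320 of them were above 0 at 24 months. The 79 genes higher at 14 months had a median of 0.73 at 24 months and of 1.2 at 3 months. The 287 genes lower at 3 months had a median of -0.41 at 24 months and -0.26 at 14 months, against medians over all genes of -0.15 and 0.02. The 61 genes higher at both 3 and 14 months were all above 0 at 24 months. Their mean log2 difference from the PBS mean of the same age was 1.39, 1.09 and 0.75 in the 3 LPS libraries of 24 months, whereas the 3 PBS libraries lay between -0.10 and 0.12. At 3 months the LPS libraries lay between 1.41 and 1.76 and at 14 months between 1.05 and 1.35, values that helped to choose these genes. LPS replicate 3 of 24 months was the lowest of all 11 LPS libraries, and replicate 1 lay between the ranges of 14 and 3 months. The spread among the LPS libraries was 0.32 (SD) at 24 months, against 0.18 at 3 and 0.12 at 14 months.

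No gene passed in the test of the difference between the 24-month and the 3-month response (0.00% of those tested). This count rests on a narrow margin, since the smallest adjusted p was 0.0504, shared by 7 genes, and 653 genes had an unadjusted p under 0.05. The robust variance gave 3, the scaling to the same total 6, pseudocounts of 0.5 and 5 gave 7 and 14, a fit to the 4 groups alone 31 and the same fold at an unadjusted p under 0.05 gave 576. Leaving out 24-month PBS replicate 3 gave 19 genes, LPS replicate 1 gave 16 and LPS replicate 3 gave 8. Of the 7 genes, Ccl5, a T cell attractant, was at 18 to 24 after PBS and 138 to 228 after LPS at 3 months, and its rise of 3.11 there stood against 0.39 at 24 months (difference -2.73 ± 0.54). Ms4a4b was 1.19 higher after LPS at 3 months and 1.87 lower at 24 months (difference -3.06 ± 0.56). Marcks, a substrate of protein kinase C, differed by -0.36 at 3 and by 1.12 at 24 months (difference 1.47 ± 0.28). Ppp1r15a differed by -0.13 and -1.69 (difference -1.55 ± 0.31), and Plk3, Fzr1 and Wdr31 were the others.

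Tnf and Myd88 rose at 3 months, by 1.75 (adjusted p = 4.57e-05) and 0.94 (adjusted p = 0.0142), and did not pass at 24 months, but the differences between the ages of -1.44 ± 0.36 and -0.77 ± 0.37 did not pass (adjusted p = 0.102 and 0.427). For Tnf the PBS levels were 24 to 28 at 3 months, 47 to 111 at 14 months and 50 to 66 at 24 months, while the LPS levels were 73 to 106, 91 to 184 and 55 to 85. The LPS levels of 3 and 24 months thus overlapped, and the PBS levels did not. The same held for Ccl5, with 18 to 24 after PBS at 3 months and 66 to 91 at 24 months. Its 24-month LPS values were 168, 128 and 47, however, and only the first reached the 3-month LPS range given above. Medians of the inflammatory lists were lower at 24 than at 3 months, 0.79 against 1.65 for cytokines, 0.61 against 1.88 for chemokines and 0.67 against 1.27 for interferon-stimulated genes, and at 14 months they were 0.92, 0.50 and 0.48. Medians over all genes were -0.15 at 24, -0.14 at 3 and 0.02 at 14 months. Taken gene by gene, the 24 minus 14 month difference had medians of 0.23, 0.21 and -0.04 in these lists. Of the 50 interferon-stimulated genes 38 rose at 3 months, 12 at 24 months and 6 at 14 months, and none passed in the tests of 24 against 3 and of 24 against 14 months. No test of 3 against 14 months was run.

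**Figure D4:**
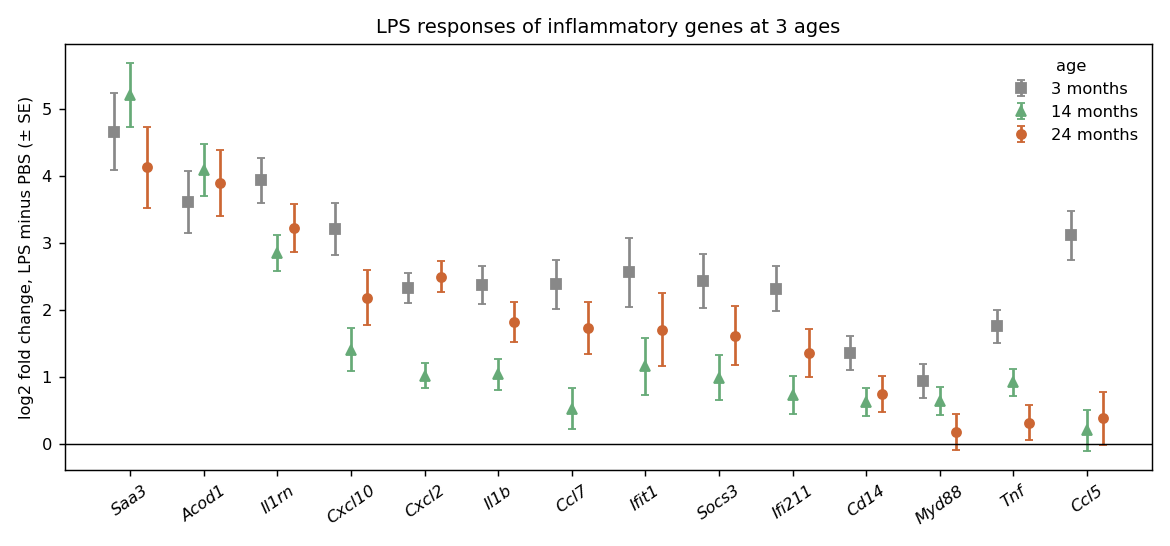
Log2 differences, LPS minus PBS, with their SE, for 14 inflammatory genes at 3 (grey), 14 (green) and 24 months (orange). Saa3, Acod1, Il1rn and Cxcl2 rose at all 3 ages, and Tnf, Myd88 and Ccl5 lie near 0 at 24 months (0.32, 0.17 and 0.39) and above it at 3 months (1.75, 0.94 and 3.11).

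The difference from the 14-month response passed for 67 genes (1.19% of those tested), 16 with a higher and 51 with a lower value at 24 months. After median-ratio scaling the split was 47 against 21 and with the same total 61 against 18. Of the 67, all 16 of the former and 18 of the latter passed under all 3 scalings. Both rescalings moved this difference upward, with a median over all genes of -0.13 in the deposited values, 0.02 after median-ratio scaling and 0.08 with the same total. The count depended on single libraries. It was 18, 16 and 182 without 24-month PBS replicates 1, 2 and 3, 29 without 24-month LPS replicate 2, and 44, 33, 129 and 140 without 14-month PBS replicates 1, 2, 3 and 5. Of the 67 genes, 55 passed at 24 months and 3 at 14 months, and 62 had opposite signs at these ages.

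Immediate early and stress genes were among the lower ones. Atf3 was at 92.0 ± 18.5 (SD, n = 5) after PBS and 100 ± 14.0 (n = 5) after LPS at 14 months, and the difference of its responses was -1.76 ± 0.26 (adjusted p = 0.00152). At 24 months its PBS level of 203 ± 45.0 (n = 3) was above every other group, and its LPS level of 65.3 ± 14.0 (n = 3) compared with 71 ± 11 (n = 3) after LPS at 3 months. Jun was at 477 ± 37.1 after PBS and 640 ± 241 after LPS at 14 months, and its responses differed by -1.63 ± 0.26 (adjusted p = 0.00321). Atf3, Jun, Fos and Fosb fell at 3 months too, by 0.61, 0.88, 0.60 and 1.27. For Atf3 the difference between the 24-month and the 3-month response did not pass (adjusted p = 0.165). Ppp1r15a was at 165 ± 47.7 and 161 ± 29.9 at 14 months, and its PBS level of 258 ± 17.8 at 24 months compared with 111 ± 13.1 (n = 4) at 3 months (difference of responses -1.68 ± 0.29, adjusted p = 0.00447). Fos (-1.03) and Dusp6 (-1.10) passed too, so 4 of the 28 immediate early genes had a lower response at 24 than at 14 months. Gna15, a G-protein subunit of blood cells, was at 148 ± 4.87 after PBS and 178 ± 27.7 after LPS at 14 months, against 223 ± 7.51 and 108 ± 20.0 at 24 months (difference -1.30 ± 0.19, adjusted p = 0.00152). At 3 months Gna15 fell as well, from 237 ± 7.94 to 140 ± 8.33.

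Higher responses at 24 than at 14 months were found for Cxcl2, C5ar2, Marcks, Notch2, Rbm26 and Mrgpra2b among others. Cxcl2 had PBS levels of 15 to 29 and LPS levels of 37 to 64 at 14 months, against 11 to 12 and 51 to 88 at 24 months (difference 1.48, adjusted p = 0.0146). Marcks was at 226 ± 37.0 and 160 ± 4.74 at 14 months but at 94, 118 and 197 after PBS and 274, 332 and 249 after LPS at 24 months (difference 1.60, adjusted p = 0.00321). C5ar2, a receptor of the complement fragment C5a, rose by 1.17 ± 0.18 at 24 months and differed by 0.03 at 14 months (difference 1.15, adjusted p = 0.0112). Nr3c1, the glucocorticoid receptor, rose by 0.73 at 24 months and differed by -0.21 at 14 months (difference 0.94, adjusted p = 0.045). All of these kept their sign and passed under both other scalings, which moved the differences between these ages upward. With all 17 groups of the series in the fit, however, Cxcl2 (adjusted p = 0.141), Mrgpra2b (adjusted p = 0.0777), Rbm26 (adjusted p = 0.063) and C5ar2 (adjusted p = 0.054) did not pass. With the 4 groups of 14 and 24 months alone in the fit, 14 genes passed in all, and Cxcl2 (adjusted p = 0.075), C5ar2 (adjusted p = 0.075), Notch2 (adjusted p = 0.0944), Rbm26 (adjusted p = 0.107) and Mrgpra2b (adjusted p = 0.0775) did not. Without 24-month PBS replicate 2, C5ar2, Notch2, Rbm26 and Mrgpra2b did not pass, and without PBS replicate 1, Cxcl2, Rbm26 and Mrgpra2b did not (adjusted p up to 0.109). Without 24-month LPS replicate 2, Cxcl2 (adjusted p = 0.0527) and Mrgpra2b (adjusted p = 0.0582) did not pass, and without LPS replicate 1, Rbm26 (adjusted p = 0.0559) and Mrgpra2b (adjusted p = 0.0714) did not.

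**Figure D5:**
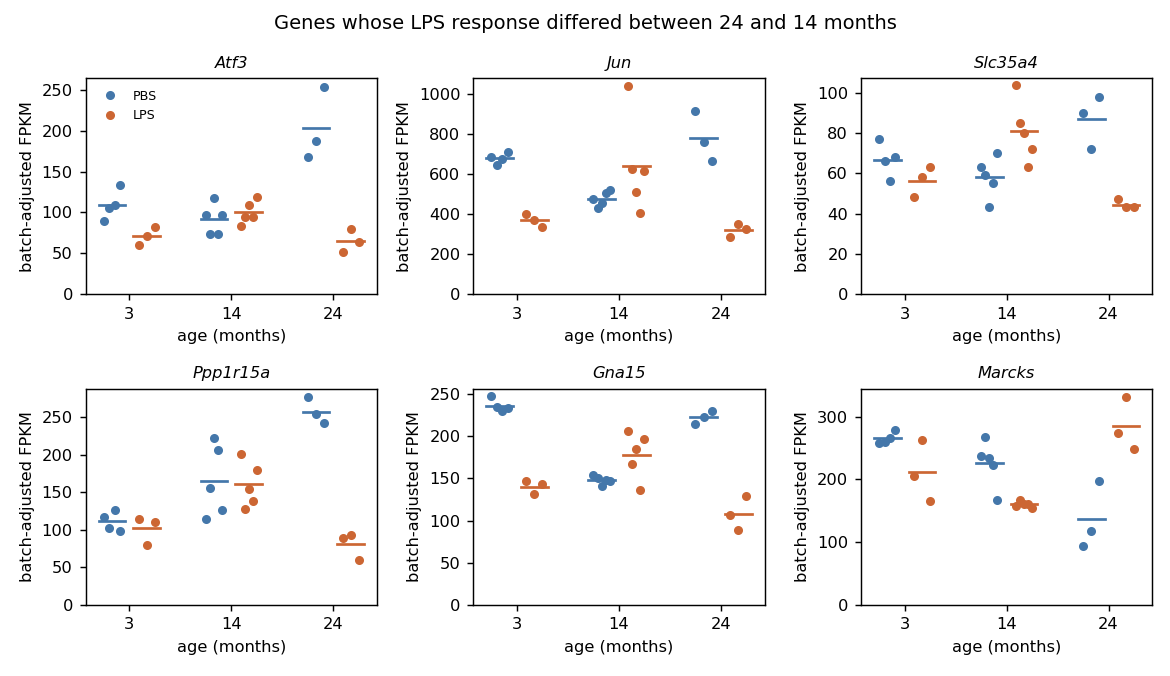
Batch-adjusted FPKM of 6 genes in every library of the 6 groups, by age and treatment (blue PBS, orange LPS), with a bar at the group mean. Atf3, Jun, Slc35a4 and Ppp1r15a have their highest PBS means and lowest LPS means at 24 months (Atf3 168 to 254 against 52 to 80), and Marcks has its lowest PBS mean and highest LPS mean there (136 against 285).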

How the data were processed

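Microglia were sorted from single brains, and RNA was primed with oligo-dT and amplified by template switching before sequencing. The authors filtered reads, and the submitters' processing notes name the mouse build mm10 with the aligner HISAT2 (2.0.4), a second aligner, Bowtie2 (2.2.5), and the quantifier RSEM (1.2.12). FPKM values from RSEM were adjusted for batches by the authors with ComBat_seq across the female and male libraries. The deposited values are therefore a score (batch-adjusted FPKM, mostly rounded to whole numbers) and not counts. Genes with a mean under 10 had been removed by the authors. The sources used here do not say which library belonged to which batch. Within-batch values could therefore not be computed, and read depth is unknown.

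Deposited values were transformed here to log2(value + 1) and fitted with limma 3.58.1 (R 4.3.3, empirical Bayes with a trend) over the 23 female libraries of 6 groups, and p-values were adjusted by Benjamini-Hochberg over 5647 genes. To pass, a gene needed an adjusted p below 0.05 together with a change of more than 1.5-fold. Since the values are not counts, the count test of the study was not used. The scripts were tested on simulated data. No set test was run, and lists were described by counts and medians. Members and lists were chosen with earlier results of these data known. Named genes were the 10 largest rises and falls without overlap between groups, up to 4 genes per list that passed, the LPS receptor, microglial markers, genes the study names for LPS, and up to 6 genes per direction of each difference between ages. Further genes were named after their values were seen. Alternatives were 2 pseudocounts, a filter on the mean, 2 rescalings, 2 variance models, other sets of groups, an unadjusted p with the same fold (the pairwise rule of the study's methods), dropping each library in turn, and a block for replicate numbers. Gene groups with near-identical copies are uncertain. Python 3.11.15, pandas 2.3.3 and matplotlib 3.10.9 were used for summaries and plots. Values of some genes are not reported here.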

Additional observations from a re-analysis of the deposited data

Results flagged for a closer look

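The difference between the 24-month and the 14-month response passed for 67 genes, which put it here, because the test was of the difference itself. Of the 6 genes with the smallest p in each direction, the value was lower at 24 months for Atf3 (-1.76), Ppp1r15a (-1.68), Jun (-1.63), Slc35a4 (-1.41), Gna15 (-1.30) and Cltb (-1.30). It was higher for Mrgpra2b (2.77), Marcks (1.60), Cxcl2 (1.48), Notch2 (1.23), C5ar2 (1.15) and Rbm26 (1.05). Among the larger differences with a larger p were those of the neutrophil markers Mpo (5.27) and Elane (4.54), which were higher. Lypla2 (-4.01), Dnal4 (-3.06) and Kdelr1 (-2.90) were lower in the same way. Each of these had values of 1 or less among the 24-month libraries, and Kdelr1 passed under neither rescaling.

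In the 14-month PBS group 1 Notch2 value, 103, stood apart from the other 4, which lay between 66 and 67. It was the only one so far from its group among the 42 groups of values examined, and chance alone sets apart about 1 in 20.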

How the results depend on the processing

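All 241 genes higher at 24 months kept their call under the other 2 scalings, which moved the differences upward. Of the 307 lower genes 106 kept it under both. The number that passed was 548, and it became 1117 at an unadjusted p under 0.05 and a fold over 1.5, 184 with a mean of at least 50 (of 1550 genes) and 91 with the 24-month groups alone. Of these, 447, 65 and 47 were higher and 670, 119 and 44 lower. Lower genes numbered 149 after median-ratio scaling and 106 with the same total, and higher genes 366 and 416. Leaving out a library gave 203 to 577 genes, 103 to 254 higher and 87 to 339 lower. For the 24 minus 3 month difference, which had 0, the other settings gave 576 at those unadjusted thresholds, 7 with a pseudocount of 0.5, 14 with 5, 7 with a mean of at least 50, 6 with the same total, 3 with a robust variance, 31 with the groups compared alone and 0 to 19 without a library. For the 24 minus 14 month difference, which had 67, they gave 881 at those unadjusted thresholds, 42 with a variance without a trend, 14 with the groups compared alone and 16 to 182 without a library. With the replicate number as a block 559, 6 and 112 genes passed in the 3 comparisons. Same-numbered libraries of 24 months correlated at 0.13, -0.03 and 0.09 in their deviations, and 4 of 6 correlated best with their own number. Shared handling was not tested, and since the labels give no pairing the numbers were not treated as pairs in the main fit. The numbers are those of the sample titles, which differ from the authors' column names for 3-month LPS and 14-month PBS. Signs turned only for differences that had not passed. Leaving out a library gave -0.017 to 0.39 for Myd88, -0.18 to 1.0 for S100a9, -0.75 to 1.06 for Cxcl13, -0.097 to 0.32 for Tlr4 and -0.099 to 0.18 for Ly96. Cxcl13 was 0.067 with a pseudocount of 5, and under the same-total and median-ratio scalings it was 0.087 and 0.045. The cause of these changes was not tested. Of the other results for named genes at 24 months, 1586 kept direction and side of the threshold, 353 lost their call and 4 gained one.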

Other observations

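Several lists not described above held few genes that passed, beside 4.27% of all genes that rose and 5.44% that fell. Among 18 Fc receptor and complement genes C3, the central complement component (1.37), and C5ar2 rose, and Fcgrt and C1qc fell by 0.63 and 0.65. Neither fall passed after rescaling, where C1qc missed only the limit on the fold (-0.53, adjusted p = 0.0268 with median-ratio scaling). Among 20 oxidative stress genes Sod2 and Txnrd1 (1.06) rose, and Gpx1 fell by 0.73, though it did not pass under all 3 scalings. Among 13 iron genes Hp, which binds free haemoglobin, rose by 2.11, and Ftl1, the ferritin light chain, and Trf, transferrin, fell by 0.80 and 0.65, Trf not under all 3 scalings. Lilr4b (1.22) was the 1 of 20 inhibitory and paired receptors that rose, and none of 16 lipid genes passed.

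Of the remaining marker lists, border macrophage markers (12 measured, none passed) summed to between 734 and 992 after PBS and between 590 and 988 after LPS. Oligodendrocyte markers (4 of 11 measured) summed to between 1589 and 1862 and between 919 and 1168, with Trf the 1 that fell in the deposited values. Endothelial markers (2 of 12) summed to between 50 and 114 and between 25 and 38, with Pltp the 1 that fell, under neither rescaling. B cell markers (2 of 10) summed to between 85 and 186 and between 59 and 76, and proliferation markers (5 of 13) to between 464 and 653 and between 560 and 733. The 2 choroid plexus markers summed to 403, 0.54 and 315 after PBS and to 70, 0.16 and 14 after LPS, and the 1 astrocyte marker measured to between 53 and 64 and between 52 and 87.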
